A study of Mus musculus with 6 samples.

Results

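The genes of MHC class I antigen presentation were examined in neural stem cells that lack Smchd1. The set holds 9 genes, chosen by name and matched to the deposited Entrez IDs, out of 27179 genes in the count tables: B2m, H2-K1, H2-D1, Tap1, Tap2, Tapbp, Psmb8, Psmb9 and Nlrc5. All 9 had counts, and 8 were among the 14207 genes that passed the filter on low counts. The mutant cells were homozygous for MommeD1, an allele of Smchd1, the gene of a chromatin protein that takes part in silencing, and the labels call them null (3 libraries). They were compared with Smchd1 wild-type cells (3 libraries). Both came from male E14.5 mouse brain (embryonic), carried the mixed strain C57BL/6 x FVB/N and were plated on laminin in medium that held 20 ng/ml of EGF and 20 ng/ml of bFGF. No interferon treatment is named in the labels. The labels do not say whether the 3 libraries of a group came from separate embryos, so the p-values measure the spread between these libraries, which may be technical.

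Class I molecules display peptides from inside the cell to CD8 T cells. A polymorphic heavy chain, here H2-K1 or H2-D1, pairs with the light chain beta-2 microglobulin (B2m). Peptides are cut by the proteasome, whose catalytic subunits can be exchanged for the inducible subunits Psmb8 and Psmb9, carried into the endoplasmic reticulum by the Tap1 and Tap2 transporter, and loaded with the help of tapasin (Tapbp). Nlrc5 is a transactivator of class I genes, and the whole set is known as a target of interferon gamma. Class I RNA is generally low in cells of the neural lineage that have not met interferon.

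Of the 9 genes, 7 lie on chromosome 17 (mm10; gene positions from the RefSeq table of GRCm38.p6). Psmb9 (Entrez 16912), Tap1, Psmb8 (16913) and Tap2 (21355) follow each other within chr17:34182030-34216321, H2-K1 (14972) lies at chr17:33996012-34000619, Tapbp (21356) at chr17:33919478-33929290 and H2-D1 (14964) at chr17:35263094-35267497. B2m (12010) lies at chr2:122147687-122153082 and Nlrc5 (434341) at chr8:94434335-94527272. Smchd1 itself is on chromosome 17, 37.2 Mb from Tap1.

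Windows around the annotated starts are shown for the light chain, for both heavy chains and for Tap1, because these genes split into unlike patterns in the counts given further on. Each window runs from 250 bases before the annotated start to 50 bases from it, 5′ to 3′ on the gene's strand (RefSeq, GRCm38.p6). The B2m window is chr2:122147437-122147736 (plus strand), that of H2-K1 is chr17:34000298-34000597 (minus strand), that of H2-D1 is chr17:35262844-35263143 (plus strand) and that of Tap1 is chr17:34187306-34187605 (plus strand). Capitals mark a match, on either strand, to the interferon-stimulated response element (GAAA, any 2 bases, then GAAA) or to the NF-kB site (GGG, any 2 bases, then TTCCC).
B2m: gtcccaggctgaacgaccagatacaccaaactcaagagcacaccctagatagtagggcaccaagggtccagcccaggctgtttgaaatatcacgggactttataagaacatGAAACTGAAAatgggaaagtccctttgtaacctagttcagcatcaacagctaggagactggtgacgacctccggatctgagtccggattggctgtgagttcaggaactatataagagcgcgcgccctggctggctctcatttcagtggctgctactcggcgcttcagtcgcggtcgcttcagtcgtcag
H2-K1: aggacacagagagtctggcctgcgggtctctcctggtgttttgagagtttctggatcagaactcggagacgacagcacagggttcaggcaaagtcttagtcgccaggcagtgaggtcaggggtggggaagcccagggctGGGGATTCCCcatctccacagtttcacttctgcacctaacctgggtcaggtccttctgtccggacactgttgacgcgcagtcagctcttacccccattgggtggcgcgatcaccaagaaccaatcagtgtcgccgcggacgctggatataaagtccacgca
H2-D1: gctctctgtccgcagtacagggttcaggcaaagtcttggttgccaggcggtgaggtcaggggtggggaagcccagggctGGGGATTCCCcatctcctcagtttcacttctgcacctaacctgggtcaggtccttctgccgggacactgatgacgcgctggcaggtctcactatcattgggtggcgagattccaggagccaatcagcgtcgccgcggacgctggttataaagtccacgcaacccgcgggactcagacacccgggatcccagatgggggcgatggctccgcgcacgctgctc
Tap1: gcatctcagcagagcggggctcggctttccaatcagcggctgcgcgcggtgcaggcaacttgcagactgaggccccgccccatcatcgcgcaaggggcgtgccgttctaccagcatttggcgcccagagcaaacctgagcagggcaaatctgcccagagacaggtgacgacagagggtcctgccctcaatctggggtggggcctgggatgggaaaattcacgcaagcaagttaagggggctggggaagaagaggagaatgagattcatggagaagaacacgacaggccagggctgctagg

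RefSeq windows were matched for 7 of the 9 genes, as 8 windows, since H2-K1 has a pair of windows that share 286 bases. The H2-K1 gene position given above reaches chr17:34000619, past both windows on the start side, and no window was matched to that end. The interferon element letters occurred in the B2m window, 139 bases before the start, and in 3.43% of 32817 promoter windows. The letters of the interferon gamma-activated site (TTC, any 3 bases, then GAA) occurred in the Psmb8 window, 97 bases before the start. They occurred in 8.29% of all windows. The NF-kB letters occurred in the windows of H2-K1 (111 bases before the start printed here) and H2-D1 (171 bases before), and in 1.76% of all windows. Those matches sit inside a run of 47 bases that is the same in both heavy chain windows. Tap1 and Psmb9 are transcribed away from each other from starts 226 bases apart, and their windows share 275 bases. The cyclic AMP element letters TGACG, on either strand, occurred in the windows of B2m, H2-K1, H2-D1, Tap1 and Psmb9 and in 20.8% of all windows. The letters CCAAT occurred in those and in the Tapbp window, and in 37.4% of all windows. A match to these letters describes the sequence only, and no match says only that the letters are not in the window.

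Total counts ran from 18608881 to 23253367 per library. Wild type replicate 3 stood apart. Its largest record held 44.6% of all its counts, while the largest record of the other libraries held 2.11% to 5.90%, and its TMM scaling factor was 0.517, with 1.11 to 1.17 in the others. Fewer reads were thus left for its other genes, and its low values are the least precise. Smchd1 had 30.3, 31.1 and 27.9 CPM (counts scaled to the depth of the library) in null replicates 1 to 3 and 271, 260 and 232 CPM in wild type replicates 1 to 3. Every null library lay below every wild type library, and Smchd1 was called lower (log2 fold change -3.10 ± 0.08 (SE), edgeR adjusted p = 1.09e-06). The neural stem cell marker Nes averaged 1184 ± 35.8 CPM in null and 1286 ± 70.2 CPM in wild type cells (mean ± SD, n = 3 each), and Sox2 averaged 278 ± 0.21 CPM in null and 265 ± 17.7 CPM in wild type cells. Of the 12 listed neural stem cell markers, 6 had positive and 6 negative log2 fold changes. Hes1, a Notch target with the smallest p among them, averaged 33.6 ± 2.54 CPM in null and 43.7 ± 5.02 CPM in wild type cells. Every null library lay below every wild type library for it, as for 10.6% of all tested genes. Its log2 fold change was -0.39 ± 0.10 (edgeR adjusted p = 0.137, DESeq2 adjusted p = 0.0432). With the range of the sample names as a term, described further on, it was -0.18. Notch1 stood at 0.18 ± 0.11 and Hes5, another Notch target, at -0.01 ± 0.17. Microglia and leukocytes carry much class I RNA, and 7 of their 16 listed markers had no count in any library, among them Itgam, Tyrobp and C1qa. Their summed level was 4.37 to 4.87 CPM in null and 3.29 to 5.75 CPM in wild type libraries. P2ry12 and Cd68 were the only tested ones among them. P2ry12, a microglial receptor, had 1.79 to 2.20 CPM in null and 1.78 to 2.78 CPM in wild type libraries. Cd68, a lysosomal protein of macrophages, had 1.97, 2.06 and 2.18 CPM in null replicates 1 to 3 and 1.16, 1.45 and 2.28 CPM in wild type replicates 1 to 3, so wild type replicate 3 lay with the null libraries. Ptprc, the pan-leukocyte marker, had 0 to 1 counts per null library and 1 to 3 per wild type library. The summed level of 11 vessel markers was 3.95 to 5.08 CPM in null and 5.06 to 5.37 CPM in wild type libraries, with Cdh5 at 0 counts. That of 10 fibroblast and pericyte markers was 5.97, 5.11 and 5.57 CPM in null replicates 1 to 3 and 2.79, 4.14 and 7.74 CPM in wild type replicates 1 to 3. Wild type replicates 1 and 2 lay below every null library, and wild type replicate 3 lay above. Among these markers the collagen gene Col1a1 had 0.446 to 0.611 CPM in null libraries and 0.116, 0.171 and 0.595 CPM in wild type replicates 1 to 3. These were 10 to 13 counts per null library and 3, 4 and 6 counts in wild type, and Col1a1 passed the filter through null libraries alone. Tagln, a smooth muscle protein, had 1.499 to 1.69 CPM in null and 0.969 to 1.49 CPM in wild type libraries. Of the 5 tested fibroblast and pericyte markers 3 had positive and 2 negative log2 fold changes, the latter Col1a2 (-0.20 ± 0.39) and Acta2 (-0.13 ± 0.54). Acta2 had 3.18 CPM in wild type replicate 3 and 0.775 to 1.83 CPM in the other libraries. Of the 4 tested vessel markers 2 were positive and 2 negative. Emcn, with the smallest p among them, had 40, 23 and 1 counts in wild type replicates 1 to 3 and 9 to 14 per null library. The part of these markers in the class I values was not tested. In bulk RNA, fewer cells with a transcript and less of it per cell cannot be told apart.

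No class I presentation gene passed the test between null and wild type cells. In edgeR's quasi-likelihood test, with Benjamini-Hochberg adjustment over all 14207 tested genes, 0 of 8 were higher and 0 of 8 lower in null, where 0.507% of all tested genes were called higher and 0.0704% lower. At an unadjusted p under 0.05 the same test counted 5 of the 8, against 18.6% of all tested genes. DESeq2 called 2 of the 8 lower (1.56% of all genes) and 0 higher (1.27%), and limma-voom with sample quality weights called 4 higher and 2 lower (19.3% and 17.5% of all genes, 36.8% in either direction). Null libraries were all above or all below the wild type libraries for 4 of the 8, 2 in each direction, where 11.4% of all tested genes had every null library above and 10.6% every null library below. Leaving out any 1 library other than wild type replicate 3 gave 0 of the tested genes of the set, where 0.202%, 0.272% and 0.23% of all genes were called higher and 0.00695%, 0.0279% and 0.00696% lower without null replicates 1, 2 and 3, and 0.242% and 0.291% higher and 0.0276% and 0.0208% lower without wild type replicates 1 and 2. The replicate block gave 0 of the 8 as well, with 0.338% of all genes higher and 0.0422% lower. Psmb9 passed the filter through its null libraries alone, and Psmb8 through 3 null libraries and 1 wild type library, so these 2 enter with a slant towards null.

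Levels per length differed widely within the set. B2m averaged 61.9 CPM per kb over the 6 libraries, H2-K1 53.0, H2-D1 18.0, Tap1 4.51, Tapbp 4.31, Tap2 1.74, Psmb8 0.835, Psmb9 0.519 and Nlrc5 0.0385 CPM per kb. B2m lay above H2-K1 in 6 of 6 libraries, with overlapping ranges. H2-K1 lay above H2-D1 and H2-D1 above Tap1 with ranges that did not overlap. Tap1 lay above Tapbp in 3 of 3 null libraries and in 0 of 3 wild type libraries, so that pair has no fixed order. Psmb8 lay above Psmb9 in 5 of 6 libraries, and both rest on few reads.

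**Figure D1:**
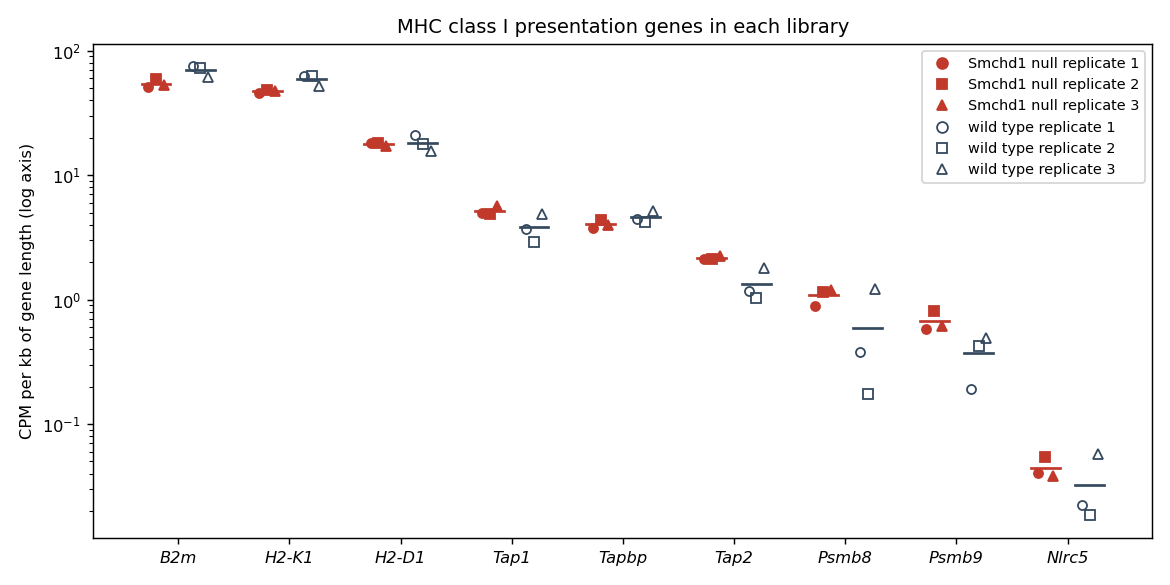
Level of each class I presentation gene in CPM per kb of gene length (log axis), with 3 Smchd1 null libraries (filled) left of 3 wild type libraries (open) and horizontal lines at the group means. All null libraries lie below all wild type libraries for B2m and H2-K1 and above them for Tap2 and Psmb9, and wild type replicate 3 (open triangle) lies near the null libraries for Tap1 and Psmb8.

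The light chain and the more abundant heavy chain shared one pattern. B2m had 43.6, 50.4 and 45.7 CPM in null replicates 1 to 3, against 64.0, 61.9 and 52.8 CPM in wild type replicates 1 to 3. Every null library lay below every wild type library, and null replicate 2 and wild type replicate 3 came closest to each other. The log2 fold change of B2m was -0.36 ± 0.09 (SE), with an edgeR adjusted p of 0.139. H2-K1, a classical heavy chain, had 74.6, 79.3 and 78.3 CPM in null replicates 1 to 3, against 104, 102 and 85.1 CPM in wild type replicates 1 to 3. Its null libraries also lay below all wild type libraries, with a log2 fold change of -0.33 ± 0.08 (edgeR adjusted p = 0.137). DESeq2 called both lower, with adjusted p values of 0.0373 for B2m and 0.0332 for H2-K1. Over 15 alternatives the adjusted p of B2m ran from 8e-05 to 0.504 and that of H2-K1 from 1.45e-05 to 0.504.

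For H2-D1, the other classical heavy chain, the groups overlapped. It had 31.5, 31.4 and 29.9 CPM in null replicates 1 to 3, against 36.7, 30.7 and 27.2 CPM in wild type replicates 1 to 3. The null values lay inside the wild type range, and the log2 fold change was -0.04 ± 0.11 (edgeR adjusted p = 0.854). The ratio of H2-K1 to H2-D1, in counts per kb, was 2.49, 2.66 and 2.77 in null replicates 1 to 3 and 2.98, 3.50 and 3.30 in wild type replicates 1 to 3. The groups did not overlap, with a difference of -0.30 on the log2 scale (exact two-sided permutation test, p = 0.10, n = 3 each, the smallest p this design allows). This ratio was chosen after the values were seen. Heavy chain genes are similar to each other in sequence and differ between inbred strains, and neither the split of shared reads between them nor the strain origin of their alleles in each library was analysed here.

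The ratio of the light chain to its heavy chains does not depend on library scaling. B2m divided by the sum of H2-K1 and H2-D1, in counts per kb, was 0.801, 0.886 and 0.823 in null replicates 1 to 3 and 0.886, 0.905 and 0.913 in wild type replicates 1 to 3. Null replicate 2 and wild type replicate 1 were nearly equal, and the difference of log2 means was -0.11 (exact two-sided permutation test, p = 0.10, n = 3 each, the smallest p possible). All 6 values lay between 0.801 and 0.913.

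The peptide transporter genes had positive log2 fold changes that did not pass the test. Tap2, one chain of the transporter, had 5.26, 5.25 and 5.62 CPM in null replicates 1 to 3, against 2.91, 2.56 and 4.47 CPM in wild type replicates 1 to 3. All null libraries lay above all wild type libraries, and wild type replicate 3 was the nearest. The log2 fold change of Tap2 was 0.76 ± 0.21 (edgeR adjusted p = 0.158). Tap1, its partner chain, had 14.8, 14.4 and 16.6 CPM in null replicates 1 to 3, against 10.97, 8.61 and 14.49 CPM in wild type replicates 1 to 3. Here wild type replicate 3 lay within the null range, and the log2 fold change was 0.45 ± 0.17 (edgeR adjusted p = 0.233). Tap1 over Tap2, in counts per kb, was 2.37, 2.31 and 2.49 in null replicates 1 to 3 and 3.18, 2.84 and 2.74 in wild type replicates 1 to 3. These groups did not overlap either, with a log2 difference of -0.29 (exact two-sided permutation test, p = 0.10, n = 3 each, the smallest p possible), a ratio also chosen after the values were seen.

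Tapbp, which bridges the transporter and the empty class I molecule, had 10.2, 12.04 and 10.9 CPM in null replicates 1 to 3, against 12.3, 11.5 and 14.2 CPM in wild type replicates 1 to 3. The ranges overlapped, and the log2 fold change was -0.18 ± 0.12 (edgeR adjusted p = 0.409). In the GENCODE M21 annotation 24.9% of Tapbp exon bases are shared with the antisense gene Gm19412, and the library kit does not mark strand. Reads from bases shared with such a partner cannot be told apart. In GENCODE, Psmb8 also shares 14.7% of its exon bases with the antisense gene Gm20496, and Tap2 shares 14.1% with Gm15821. Tap1 and Psmb9 share 212 exon bases on opposite strands there, while their RefSeq positions do not overlap. GENCODE exons cover more bases than the counted gene lengths (3628 against 2750 for Tapbp, 3381 against 1223 for Psmb8). Overlap of the counted exons themselves was not examined.

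The inducible proteasome subunits were near the limit of detection. Psmb8, which replaces the subunit Psmb5, had 23, 30 and 33 counts in null replicates 1 to 3 and 12, 5 and 15 counts in wild type replicates 1 to 3. As CPM these were 1.08, 1.41 and 1.47 in null and 0.465, 0.213 and 1.49 in wild type libraries, so wild type replicate 3, the shallowest, held the highest level of all. The log2 fold change of Psmb8 was 1.18 ± 0.53 (edgeR adjusted p = 0.279). Psmb9, which replaces Psmb6, had 10, 14 and 11 counts in null and 4, 8 and 4 counts in wild type replicates 1 to 3, which was 0.470, 0.656 and 0.490 CPM in null and 0.155, 0.341 and 0.397 CPM in wild type libraries. Its null libraries lay above all wild type libraries, with a log2 fold change of 0.96 ± 0.41 (edgeR adjusted p = 0.260). Counts this small carry a wide counting error.

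The standard catalytic subunits were far more abundant. Psmb5 averaged 47.6 ± 4.70 CPM in null and 53.0 ± 9.70 CPM in wild type cells (mean ± SD, n = 3 each), and Psmb6 averaged 141 ± 5.64 CPM in null and 155 ± 9.86 CPM in wild type cells. Psmb10, the third inducible subunit and the partner of Psmb7, averaged 13.8 ± 1.42 CPM in null and 13.7 ± 2.52 CPM in wild type cells, well above Psmb8 and Psmb9. Psmb8, Psmb9 and Psmb10 together made up 3.45%, 3.86% and 3.91% of the 6 catalytic subunits, in counts per kb, in null replicates 1 to 3 and 2.51%, 2.68% and 4.49% in wild type replicates 1 to 3. Wild type replicate 3 had the highest share, and the group difference of 0.516 percentage points was smaller than the wild type SD of 1.10 (exact two-sided permutation test, p = 0.40, n = 3 each). Without wild type replicate 3 the difference was 1.15 points. Psmb8 and Psmb9 alone made up 0.451% to 0.594% in null libraries, and 0.145%, 0.151% and 0.520% in wild type replicates 1 to 3, a share chosen after the values were seen.

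**Figure D2:**
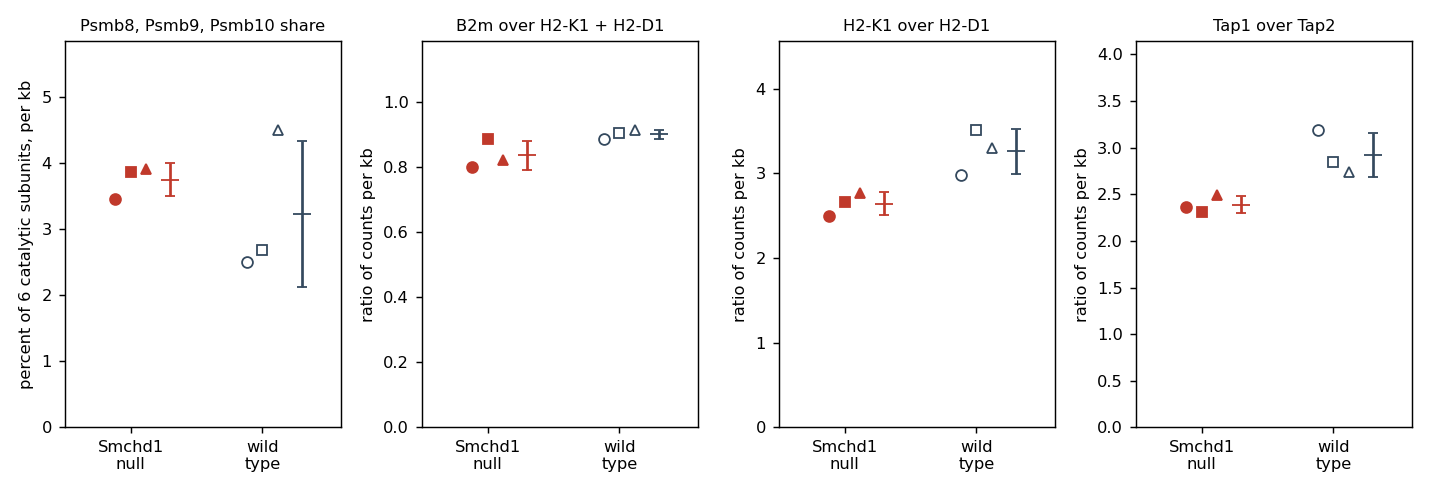
Ratios within each library, from counts per kb, for 3 Smchd1 null libraries (filled, left) and 3 wild type libraries (open, right); bars give mean ± SD, and circle, square and triangle are replicates 1, 2 and 3. The inducible proteasome share is highest in wild type replicate 3 (4.49%), while H2-K1 over H2-D1 and Tap1 over Tap2 lie below all wild type values in every null library.

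Nlrc5, the transactivator of the class I genes, was read only a few times per library. It had 6, 8 and 6 counts in null replicates 1 to 3 and 4, 3 and 4 counts in wild type replicates 1 to 3, and none of the 6 libraries reached the filter. Its level was 0.282, 0.375 and 0.267 CPM in null libraries and 0.155, 0.128 and 0.397 CPM in wild type libraries, with wild type replicate 3 highest. No difference was detectable at this depth.

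Wild type replicate 3 lay apart from wild type replicates 1 and 2 for several of these genes. On the scale of log2(CPM + 0.5) it lay 1.26 above the mean of wild type replicates 1 and 2 for Psmb8, 0.62 for Tap2 and 0.55 for Tap1, and below it for B2m (-0.25), H2-K1 (-0.27) and H2-D1 (-0.30). Without it edgeR called 5 of the 8 genes: Tap1 (log2 fold change 0.63, adjusted p = 0.000398), Tap2 (0.97, 0.000132) and Psmb8 (1.92, 0.000529) higher in null, and B2m (-0.44, 8e-05) and H2-K1 (-0.42, 1.45e-05) lower. In that fit 19.7% of all tested genes were called higher and 19.4% lower, or 39.2% in either direction. The summed fibroblast and pericyte markers and Cd68 were also higher in wild type replicate 3 than in wild type replicates 1 and 2. Acta2 (3.18 CPM) was the largest part of that sum in wild type replicate 3, and the vessel marker Emcn was lowest there. The part of such markers in the class I values was not tested. Over the 15 alternatives the adjusted p ran from 0.000398 to 0.896 for Tap1, from 0.000132 to 0.687 for Tap2 and from 0.000529 to 0.911 for Psmb8.

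The sample names carry numbers that follow the same split. The null libraries are named NPC_RNA_11, NPC_RNA_12 and NPC_RNA_13 and wild type replicate 3 is named NPC_RNA_14, while wild type replicates 1 and 2 are named NPC_RNA_113 and NPC_RNA_114, and the labels do not say what the numbers stand for. With the range of these numbers as a term, edgeR gave log2 fold changes of -0.18 ± 0.10 for B2m, -0.14 ± 0.07 for H2-K1, 0.07 ± 0.17 for Tap1, 0.27 ± 0.23 for Tap2 and -0.17 ± 0.43 for Psmb8, and 0 of the 8 genes passed, where 0.542% of all genes were called higher and 0.767% lower. That fit compares the null libraries with wild type replicate 3 alone. Genotype and the range of the sample names cannot be told apart for wild type replicates 1 and 2.

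**Figure D3:**
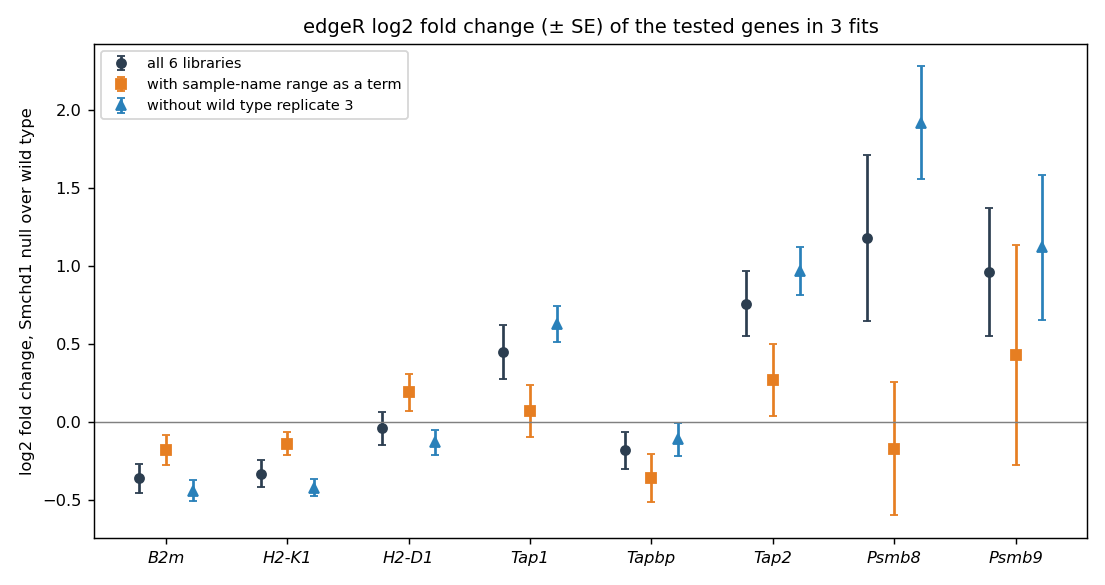
Log2 fold change, Smchd1 null over wild type (± SE, edgeR), of the 8 tested class I presentation genes in the fit of all 6 libraries, with the sample-name range as a term, and without wild type replicate 3. B2m and H2-K1 stay below 0 and Tap1, Tap2 and Psmb9 above 0 in all 3 fits, while Psmb8 is at 1.92 without wild type replicate 3 and at -0.17 with the term. With the term Tap1 (0.07 ± 0.17) and Psmb9 (0.43 ± 0.71) lie within 1 SE of 0, and H2-D1 turns to 0.19.

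The 5 genes closest to the mean of the set over the 6 libraries, by Pearson correlation with the mean centred log2(CPM + 0.5) of the 8 tested genes among 11400 genes at log2 CPM 1 or more on average, were Paqr9 (r = 0.996), Scara3 (0.995), Dtx3 (0.993), Fancf (0.993) and Tmem222 (0.991). Without wild type replicate 3 these correlations were 0.997, 0.997, 0.999, 0.998 and 0.991. That mean is not a profile all 8 genes share, since 4 had positive and 4 negative log2 fold changes. It follows Tap1, Tap2, Psmb8 and Psmb9 and is unlike that of B2m and H2-K1, and Psmb8 and Psmb9 passed the filter mainly through null libraries. The mean profile was lowest in wild type replicates 1 and 2 (-0.11 and -0.23). The correlations describe 6 points that share libraries, scaling and depth. These genes were picked as the highest of 11400, so high values follow from the choice. The values without wild type replicate 3 reuse libraries that picked the genes and are no separate check.

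The rest of the pathway held no gene that passed the edgeR test. Among other class I and class I-like genes, 13 of 24 listed were tested, 0 were called, and the median log2 fold change was 0.00, as over all tested genes. H2-Q10, a secreted class I molecule of liver in the mouse, stood at 0.909 ± 0.131 CPM in null and 0.410 ± 0.077 CPM in wild type cells (log2 fold change 1.20 ± 0.30, edgeR adjusted p = 0.134). It had only 21, 21 and 17 counts in null replicates 1 to 3 and 9, 9 and 5 in wild type replicates 1 to 3. H2-Q10 passed the filter through its null libraries alone, so it enters with a slant towards null. H2-Q genes are near copies of each other, so reads may be split between them. Cd1d1, which presents lipids, stood at 18.7 ± 1.27 CPM in null and 25.8 ± 3.92 CPM in wild type cells (-0.47 ± 0.12, edgeR adjusted p = 0.135).

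Genes for translocation, trimming and folding of peptides and class I chains also gave 0 calls among 22 tested, with a median log2 fold change of -0.06. Calr, the chaperone calreticulin of the loading complex, averaged 397 ± 7.18 CPM in null and 385 ± 17.1 CPM in wild type cells. Canx (calnexin) averaged 1081 ± 11.3 CPM in null and 1162 ± 45.3 CPM in wild type cells. Pdia3, the disulfide isomerase joined to tapasin, averaged 293 ± 8.72 CPM in null and 309 ± 0.92 CPM in wild type cells. Erap1, which trims peptides in the endoplasmic reticulum, averaged 21.0 ± 0.70 CPM in null and 19.9 ± 0.70 CPM in wild type cells (0.08 ± 0.08, edgeR adjusted p = 0.583). The smallest p values were those of Bcap31, a sorting factor of the endoplasmic reticulum (-0.28 ± 0.11), and Sec61b, a translocon subunit (-0.32 ± 0.13).

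Of 16 standard proteasome genes 0 were called, with a median log2 fold change of -0.17. Of the 16, 15 had a negative value, against 7064 of all 14207 tested genes. Their summed level was 1664, 1671 and 1717 CPM in null replicates 1 to 3. It was 2009, 2000 and 1679 CPM in wild type replicates 1 to 3, so wild type replicate 3 lay with the null libraries. Psmb2 (-0.19 ± 0.06) and Psmb1 (-0.22 ± 0.07) had the smallest p values, each with an edgeR adjusted p of 0.204. Among Psmb10, Psme1, Psme2 and Pomp, the last an assembly factor, 0 were called. Psme1, a subunit of the activator PA28, averaged 16.9 ± 0.99 CPM in null and 18.4 ± 1.43 CPM in wild type cells, and Psme2, its partner, averaged 2.95 ± 0.31 CPM in null and 3.48 ± 0.26 CPM in wild type cells.

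Regulators of class I expression gave 0 calls among 36 tested, with a median log2 fold change of -0.05. Rfx5, a subunit of the factor that binds class I promoters together with Nlrc5, averaged 19.3 ± 1.96 CPM in null and 15.3 ± 1.22 CPM in wild type cells (0.35 ± 0.11, edgeR adjusted p = 0.189). Irf1, an interferon-induced activator of this pathway, averaged 9.25 ± 0.74 CPM in null and 10.5 ± 1.52 CPM in wild type cells, and Nfkb2 stood at -0.28 ± 0.12 (edgeR adjusted p = 0.254).

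Of 18 tested interferon targets 0 were called, with a median log2 fold change of 0.16, and 11 were positive and 7 negative. Gbp7, a guanylate-binding protein, came closest, at 37.8 ± 3.92 CPM in null and 53.4 ± 4.95 CPM in wild type cells (-0.50 ± 0.10, edgeR adjusted p = 0.0867), followed by Gbp3 (-0.66 ± 0.19). Among the positive ones Irgm1 had the smallest p (0.57 ± 0.24, edgeR adjusted p = 0.260). It had 9.35 to 11.1 CPM in null libraries and 6.32, 5.12 and 10.6 CPM in wild type replicates 1 to 3. Class II genes were nearly silent: 2 of 11 were tested, and 4 had no count in any library. H2-Ab1, a class II beta chain encoded 75.7 kb from the Tap1 start, had 1.22, 1.36 and 1.38 CPM in null replicates 1 to 3 and 0.271, 0.256 and 1.29 CPM in wild type replicates 1 to 3 (1.48 ± 0.51, edgeR adjusted p = 0.211), so wild type replicate 3 again lay with the null libraries. In counts, H2-Ab1 had 26 to 31 per null library and 7, 6 and 13 in wild type replicates 1 to 3. It passed the filter through the null libraries and wild type replicate 3. Without wild type replicate 3, edgeR called 39.2% of all tested genes. In that fit it called 2 of 13 other class I genes, 8 of 22 translocation and trimming genes, 13 of 16 standard proteasome genes, 12 of 38 regulators, 8 of 18 interferon targets and 1 of 2 class II genes. The shares of other class I, translocation and trimming genes and regulators were below that of all genes, so their counts are no result about those lists. The share of interferon targets (44.4%) was near that of all genes, and the share of class II genes (50%) rested on 2 tested genes. Neither count is a result about its list. The share of standard proteasome genes was 81.2%. No list was tested as a set.

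**Figure D4:**
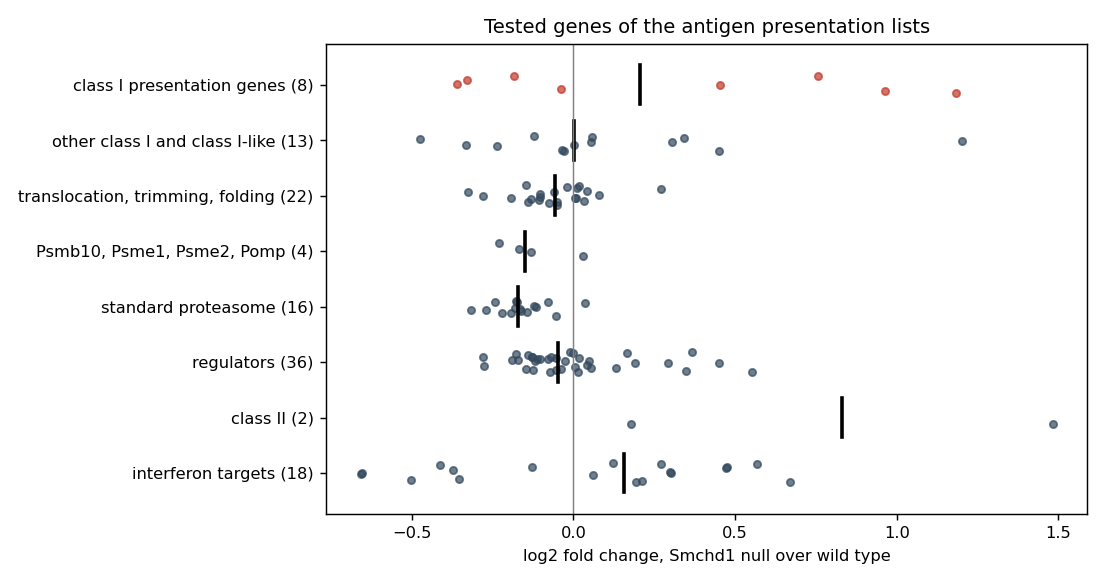
Log2 fold change, Smchd1 null over wild type, of each tested gene (points) and the median (black bar) for the class I presentation genes and 7 further lists, with the number tested in brackets. The standard proteasome genes gather around a median of -0.17, while the class I presentation genes spread from -0.36 to 1.18.

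Around Tap1, 78 tested genes started within 1 Mb, 6 of them presentation genes, and edgeR called 0. The median log2 fold change there was -0.03, with 35 positive and 43 negative values. Psmb9, Tap1, Psmb8 and Tap2 were all positive in the fit of 6 libraries, while Tapbp and H2-K1, to the other side, were negative. On the whole of chromosome 17, with 679 tested genes, Smchd1 was the only gene called in the edgeR fit with genotype as its single term and the count filter. Without a filter edgeR called 8 genes of the chromosome, and with the sample-name term 7. Within 1 Mb of Tap1, DESeq2 called 1 gene, and edgeR without wild type replicate 3 called 23 of 78 (29.5%), below the 39.2% of all tested genes in that fit.

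**Figure D5:**
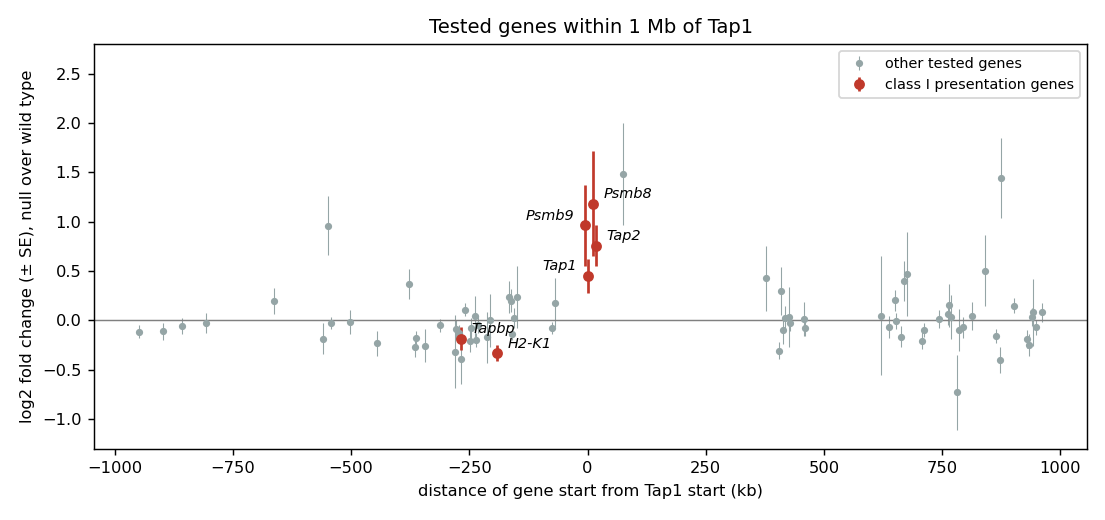
Log2 fold change (± SE, edgeR), Smchd1 null over wild type, of 78 tested genes by the distance of their start from the Tap1 start in kb, with presentation genes in red. Psmb9, Tap1, Psmb8 and Tap2 sit together above 0, from 0.45 to 1.18, and Tapbp and H2-K1 lie below 0.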

How the data were processed

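RNA of 6 libraries was counted per gene. The deposited values are raw counts per Entrez gene with a gene length in bases, per the file headers. The submitters' processing notes name mm10, featureCounts, CASAVA 1.8.2, limma 3.22.0 and edgeR 3.8.2. No aligner, and no rule for reads shared by several genes, is named there. Per the labels' protocols the TruSeq RNA v2 kit was used on total RNA. The RefSeq table of GRCm38.p6 matched 25275 of 27179 IDs (93.0%) and 202 of 204 listed names.

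The test was that of edgeR 4.0.16 (R 4.3.3): filterByExpr (minimum count 10), TMM scaling, robust quasi-likelihood F-test with genotype as the only term, and Benjamini-Hochberg adjustment over 14207 genes at a threshold of 0.05. Each SE is the absolute log2 fold change divided by the root of F. Replicate libraries differed by more than sampling noise (mean chi-square per gene of at least 7.26). The median per gene was far lower than the mean, at 0.877 to 1.22 in the pairs without wild type replicate 3. In the pairs with it the median was 76.8 and 81.1, scaled by total counts that include its largest record. Alternatives were DESeq2 1.42.0, limma-voom with quality weights (limma 3.58.1), another scaling, 2 filters, the replicate block, the sample-name range, leaving out each library and, added after seeing the data, 2 subsets. Named genes were the 9 presentation genes, Smchd1, standard pathway genes and markers, the called genes or else the 2 smallest p values per list, and 5 genes by likeness; not every such gene is printed. The genes and lists were chosen with earlier results of these data known.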

Additional observations from a re-analysis of the deposited data

How the results depend on the processing

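Over all genes, 72 were higher and 10 lower in null. DESeq2 gave 180 and 221, limma-voom with quality weights 2736 and 2493, no filter 163 and 59, and the libraries named 11 to 14 alone, a subset chosen after seeing the data in which the lone wild type library is assumed to vary like the null libraries, 126 and 250. The sample-name term gave 109 lower. Leaving out 1 library gave 29 to 2857 higher and 1 to 2819 lower, both highest without wild type replicate 3. Of the presentation genes, limma-voom called 4 higher and 2 lower, DESeq2 2 lower, and leaving out 1 library gave 0 to 3 higher and 0 to 2 lower, all calls being without wild type replicate 3. The replicate numbers did not pair the libraries (correlations of same-numbered deviations -0.006, 0.027 and -0.041); the replicate block gave 48 higher and 6 lower.

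Of all tested genes limma-voom called 36.8% and edgeR without wild type replicate 3 called 39.2%, so list counts near those shares say nothing of a list. Against 0 in each list, they called 2 and 2 of 13 other class I genes, 6 and 8 of 22 translocation and trimming genes, 1 and 1 of 4 inducible and 12 and 13 of 16 standard proteasome genes, 10 of 36 and 12 of 38 regulators, 1 and 1 of 2 class II genes, 8 and 8 of 18 interferon targets, 6 and 7 of 12 neural stem, 1 and 1 of 2 microglia, 1 of 4 and 1 of 5 vessel and 3 and 3 of 5 fibroblast markers, 24 and 23 of 78 genes within 1 Mb of Tap1 and, against 1, 240 and 248 of 679 on chromosome 17. The lowest count without 1 library was 0 in each list and 1 on chromosome 17. DESeq2 called 1 other class I gene, 2 interferon targets, 1 neural stem marker, 1 gene near Tap1 and 11 on chromosome 17. No filter gave 1 interferon target and 8 genes on chromosome 17. The sample-name term gave 1 neural stem marker, 1 gene near Tap1 and 7 on chromosome 17, and the libraries named 11 to 14 gave 1, 1 and 13, with 1 regulator and 1 interferon target.

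Under the sample-name term and in the libraries named 11 to 14 alone, the direction turned for H2-D1 (0.19 in both), Psmb8 (-0.17), Psmb10 (-0.27), Psmb5 (0.18), Psmb7 (0.07), Sox2 (-0.03 and -0.04), Bcap31 (0.01) and Sec61b (0.03 and 0.02). With 1 library left out, H2-D1 ran from -0.13 to 0.09 and Psmb10 from -0.07 to 0.17, turning without wild type replicate 1 for both and, for Psmb10, also without wild type replicate 2 (-0.02) or null replicate 3 (-0.06). The inducible proteasome share differed by -0.747 percentage points (null minus wild type) in the libraries named 11 to 14, and by 0.157 to 1.15 with 1 library left out. The cause was not tested. Psmb9 had no value under the 1 CPM filter. Few reads limit Psmb8, Psmb9 and Nlrc5.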
